A study of Mus musculus with 20 samples.

Results

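The genes described here are 10 members of epidermal growth factor (EGF) and fibroblast growth factor (FGF) signalling: the receptors Egfr, Fgfr1, Fgfr2 and Fgfr3, the feedback inhibitors Spry1, Spry2, Spry4 and Dusp6, and the transcription factors Etv4 and Etv5. They are listed by symbol, and the list was drawn up with earlier results of these data known. Each of the 10 symbols matched 1 row among the 27998 genes of the single-cell RNA-seq (scRNA-seq) libraries and 1 row among the 24062 genes of the RNA-seq libraries of cultured cells.

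EGF and FGF receptors are tyrosine kinases that signal through adaptors to the Ras, Raf, MEK and ERK cascade, and both ligands keep neural stem cells (NSCs) dividing in culture. ERK signalling raises the transcription of its own inhibitors: Sprouty proteins, encoded by the Spry genes, act upstream in the cascade, and Dusp6 encodes a phosphatase that removes phosphate from ERK. Etv4 and Etv5 encode ETS family transcription factors, and their transcripts are widely used as readouts of FGF signalling. In the brain Fgfr3 is enriched in astrocytes and radial glia, and Egfr is found in activated stem cells and early glial progenitors.

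The study asked how NSCs of the mouse dentate gyrus (DG) change from the neonatal stage to mature adulthood, and what the histone H4 lysine 20 methyltransferase Setd8 contributes. EGFP-positive cells were sorted from the DG of Nestin-EGFP mice (C57BL/6), in which regulatory sequences of the Nestin gene drive EGFP. The mice were at postnatal day 5 (P5), 12 weeks (12w) or 24 weeks (24w) of age, and each age gave 1 scRNA-seq and 1 single-cell ATAC-seq (scATAC-seq) library. Separately, cultured mouse NSCs were infected with a lentivirus carrying a scrambled short hairpin RNA (Ctrl) or one against Setd8 (Setd8KD), were selected with puromycin, and were collected 3 days after infection for bulk RNA-seq. The cultured cells were grown in basic FGF and EGF, the ligands of the receptors described here, so none of these libraries is from unstimulated cells. The study's methods describe them as a long-passaged line from embryonic cortex, whereas the labels give hippocampus as the tissue. They held Sox2 at 226 to 251 TPM in the 4 libraries.

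With 1 library at each age, differences between ages have no replicate error and no test was applied to them. Unique molecular identifiers (UMIs), each of which counts 1 captured RNA molecule, were summed over the cells of a class at each age and expressed in counts-per-million units (CPM). Ranges in parentheses are exact 95% intervals that cover counting error only and not differences between mice. Filtering left 12752 P5 cells, 5271 of 12w and 2794 of 24w, with medians of 4261, 2271 and 2178 UMIs. The libraries shared 26 to 86 cell barcodes between pairs. Age was mixed with the sex of the cells: the P5 library held cells of both sexes, 92.4% of cells at 12w had Xist and no Y-linked UMI, and at 24w 29.5% had a Y-linked UMI and no Xist against 0.0358% the reverse. The effect of age and that of sex cannot be told apart in the ratios of whole classes. For NSC-like cells each adult age was also set against P5 cells of like sex, and 19 of the 20 log2 ratios of the 10 genes then stayed within the counting intervals of the whole class. Clusters were named from marker genes with the 10 genes and the rest of their pathway kept out, and are called NSC-like, NPC-like (neural progenitor), AS-like (astrocyte or its precursor), IMN1-like and IMN2-like (immature neurons), OPC-like and OL-like (oligodendrocyte precursor and oligodendrocyte), EDC-like (ependymal), PC-like (pericyte), VSMC-like (vascular smooth muscle) and EC-like (endothelial). The NSC-like class held 850, 406 and 99 cells in order of age, and the NPC-like class 1293, 244 and 44.

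RefSeq promoters of build GRCm38.p6 were used for 7 of the 10 genes, 9 promoters in all. Because all 10 genes are linked to ERK signalling, these were searched on both strands for 3 motifs bound by factors downstream of it: the ETS core CCGGAAG, the AP-1 site TGANTCA and the cAMP response element (CRE) TGACGTCA. A single match was found, an ETS core on the minus strand of the Egfr promoter whose first base lay 120 bases before the start. Of all 32851 promoters of this length, 8.86% held the ETS core, 7.81% the AP-1 site and 1.79% the CRE. The 250 bases before the start are shown for 1 gene of each role, a receptor, both kinds of inhibitor and a target, with the matched bases in capitals. They are the promoter of Egfr (chr11:16751953-16752202 on the plus strand), Spry2 (chr14:105896820-105897069 on the minus strand), Dusp6 (chr10:99262981-99263230 on the plus strand) and, for Etv5, the first of a pair of starts (chr16:22439571-22439820 on the minus strand).
Egfr: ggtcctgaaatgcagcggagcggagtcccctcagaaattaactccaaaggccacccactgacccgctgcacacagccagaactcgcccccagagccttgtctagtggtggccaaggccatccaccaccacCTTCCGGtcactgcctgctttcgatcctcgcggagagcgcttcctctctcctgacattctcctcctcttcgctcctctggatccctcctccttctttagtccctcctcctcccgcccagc
Spry2: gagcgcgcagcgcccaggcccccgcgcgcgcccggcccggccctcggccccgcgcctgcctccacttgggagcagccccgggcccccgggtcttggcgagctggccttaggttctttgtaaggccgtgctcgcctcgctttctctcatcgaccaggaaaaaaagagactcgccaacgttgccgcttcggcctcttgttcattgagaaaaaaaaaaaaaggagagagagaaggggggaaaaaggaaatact
Dusp6: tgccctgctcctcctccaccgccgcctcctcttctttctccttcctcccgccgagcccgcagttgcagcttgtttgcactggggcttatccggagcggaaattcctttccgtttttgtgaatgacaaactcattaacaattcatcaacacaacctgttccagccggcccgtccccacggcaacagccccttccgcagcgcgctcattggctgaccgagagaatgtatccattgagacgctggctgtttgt
Etv5: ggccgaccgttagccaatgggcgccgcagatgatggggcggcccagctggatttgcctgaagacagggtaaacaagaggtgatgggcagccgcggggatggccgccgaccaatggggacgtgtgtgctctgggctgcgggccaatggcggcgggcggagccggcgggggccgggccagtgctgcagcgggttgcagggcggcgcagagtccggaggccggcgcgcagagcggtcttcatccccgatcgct
Of the other genes, the annotated starts lay on chromosome 8 from 25518759 to 25532281 for the 5 of Fgfr1, chromosome 7 from 130266191 to 130266263 for the 3 of Fgfr2, chromosome 5 from 33721724 to 33722306 for the 4 of Fgfr3, chromosome 3 from 37639947 to 37640080 for the 3 of Spry1 and chromosome 11 from 101785310 to 101785371 for the 2 of Etv4 (GRCm38). The windows of Spry2, Dusp6 and Etv5 held none of the 3 motifs, which says only that these letters are not in them.

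Among the 3 FGF receptors, Fgfr1 had its highest pooled level in IMN2-like cells, and Fgfr2 and Fgfr3 had theirs in AS-like cells. Over all ages, Fgfr1 was at 267 CPM (254 to 280.1) in IMN2-like cells, 212 CPM (205 to 219) in AS-like cells and 181 CPM (170.3 to 193) in NSC-like cells. It was the only receptor of the 4 whose pooled level was highest in a neuronal class, although at 24w AS-like cells had more of it than IMN2-like cells (302 against 225 CPM, with intervals that overlapped), and it was also found in EDC-like (143 CPM), IMN1-like (113 CPM) and PC-like cells (97.3 CPM). Of the named classes, Fgfr3 was highest in AS-like cells at 332 CPM (323 to 341), followed by NSC-like cells at 137 CPM (127 to 147). EDC-like cells had 77.4 CPM (64.9 to 91.5) of Fgfr3 and NPC-like cells 61.3 CPM (56.9 to 65.9). Those intervals did not overlap between the first and the next class, or between NSC-like and EDC-like cells, while the intervals of EDC-like and NPC-like cells did. Fgfr2 was at 55.5 CPM (52.0 to 59.2) in AS-like cells, 43.8 CPM (34.6 to 54.8) in EDC-like cells and 36.7 CPM (31.8 to 42.1) in NSC-like cells, and neighbouring intervals overlapped in this order. In IMN1-like and PC-like cells Fgfr2 was at 2.40 and 1.57 CPM.

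Of the named classes, Egfr was highest in those of glia and progenitors, with 72.6 CPM (68.6 to 76.8) in AS-like, 37.7 CPM (34.3 to 41.3) in NPC-like and 29.3 CPM (25.0 to 34.3) in NSC-like cells over all ages. A cluster of 558 cells left without a name had 121 CPM (109 to 133) of Egfr. In immature neurons Egfr was low, at 6.66 CPM in the IMN1-like class and 6.57 CPM in the other.

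Pooled levels weigh the ages by their cells, which differed between classes. Of the inhibitors, Spry2 was at 114 CPM (108 to 119) in AS-like, 99.8 CPM (91.6 to 109) in NSC-like and 80.7 CPM (75.3 to 86.4) in PC-like cells, most of which were adult. At P5 Spry2 was at 57.0 CPM in OPC-like, 44.4 CPM in NPC-like and 36.5 CPM in PC-like cells, behind AS-like and NSC-like cells. Spry1 was at 104 CPM (96.3 to 112) in OPC-like and 93.3 CPM (87.4 to 99.4) in PC-like cells, against 12.3 CPM (9.52 to 15.6) in NSC-like and 19.9 CPM (17.9 to 22.2) in AS-like cells. At P5 alone the order was another, with 129.7 CPM in PC-like, 128 CPM in VSMC-like and 104 CPM in OPC-like cells. A small fibroblast-like class also held Spry1 at 135 CPM (88.4 to 198), an interval that overlapped that of OPC-like cells. Spry4 was found at 42.5 CPM (38.6 to 46.7) in PC-like, 42.4 CPM (35.0 to 50.9) in VSMC-like and 34.2 CPM (30.0 to 38.8) in OPC-like cells, and at 8.17 CPM or lower in the other named classes. Dusp6 was at 125 CPM (101 to 152) in EC-like, 99.4 CPM (93.4 to 106) in PC-like and 79.3 CPM (69.1 to 90.6) in VSMC-like cells. OPC-like cells had 60.3 CPM (54.7 to 66.4), AS-like 52.1 CPM (48.7 to 55.7) and NSC-like 29.3 CPM (25.0 to 34.3). Fibroblast-like and microglia-like classes of 38 and 25 cells had 88.5 and 82.0 CPM. At P5 PC-like and OPC-like cells were at 66.7 and 59.1 CPM, with intervals that overlapped, and at 12w at 111 and 117 CPM.

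Of the transcription factors, Etv4 was at 169 CPM (163 to 175) in AS-like, 124 CPM (116 to 133) in OPC-like, 82.0 CPM (74.6 to 90.0) in NSC-like and 61.9 CPM (57.5 to 66.5) in NPC-like cells. The corresponding levels of Etv5 were 83.8, 69.5, 48.1 and 37.2 CPM. Over all ages these 4 classes had the same order for both factors, while at P5 Etv5 was at 43.0 CPM in NPC-like and 42 CPM in NSC-like cells.

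**Figure D1:**
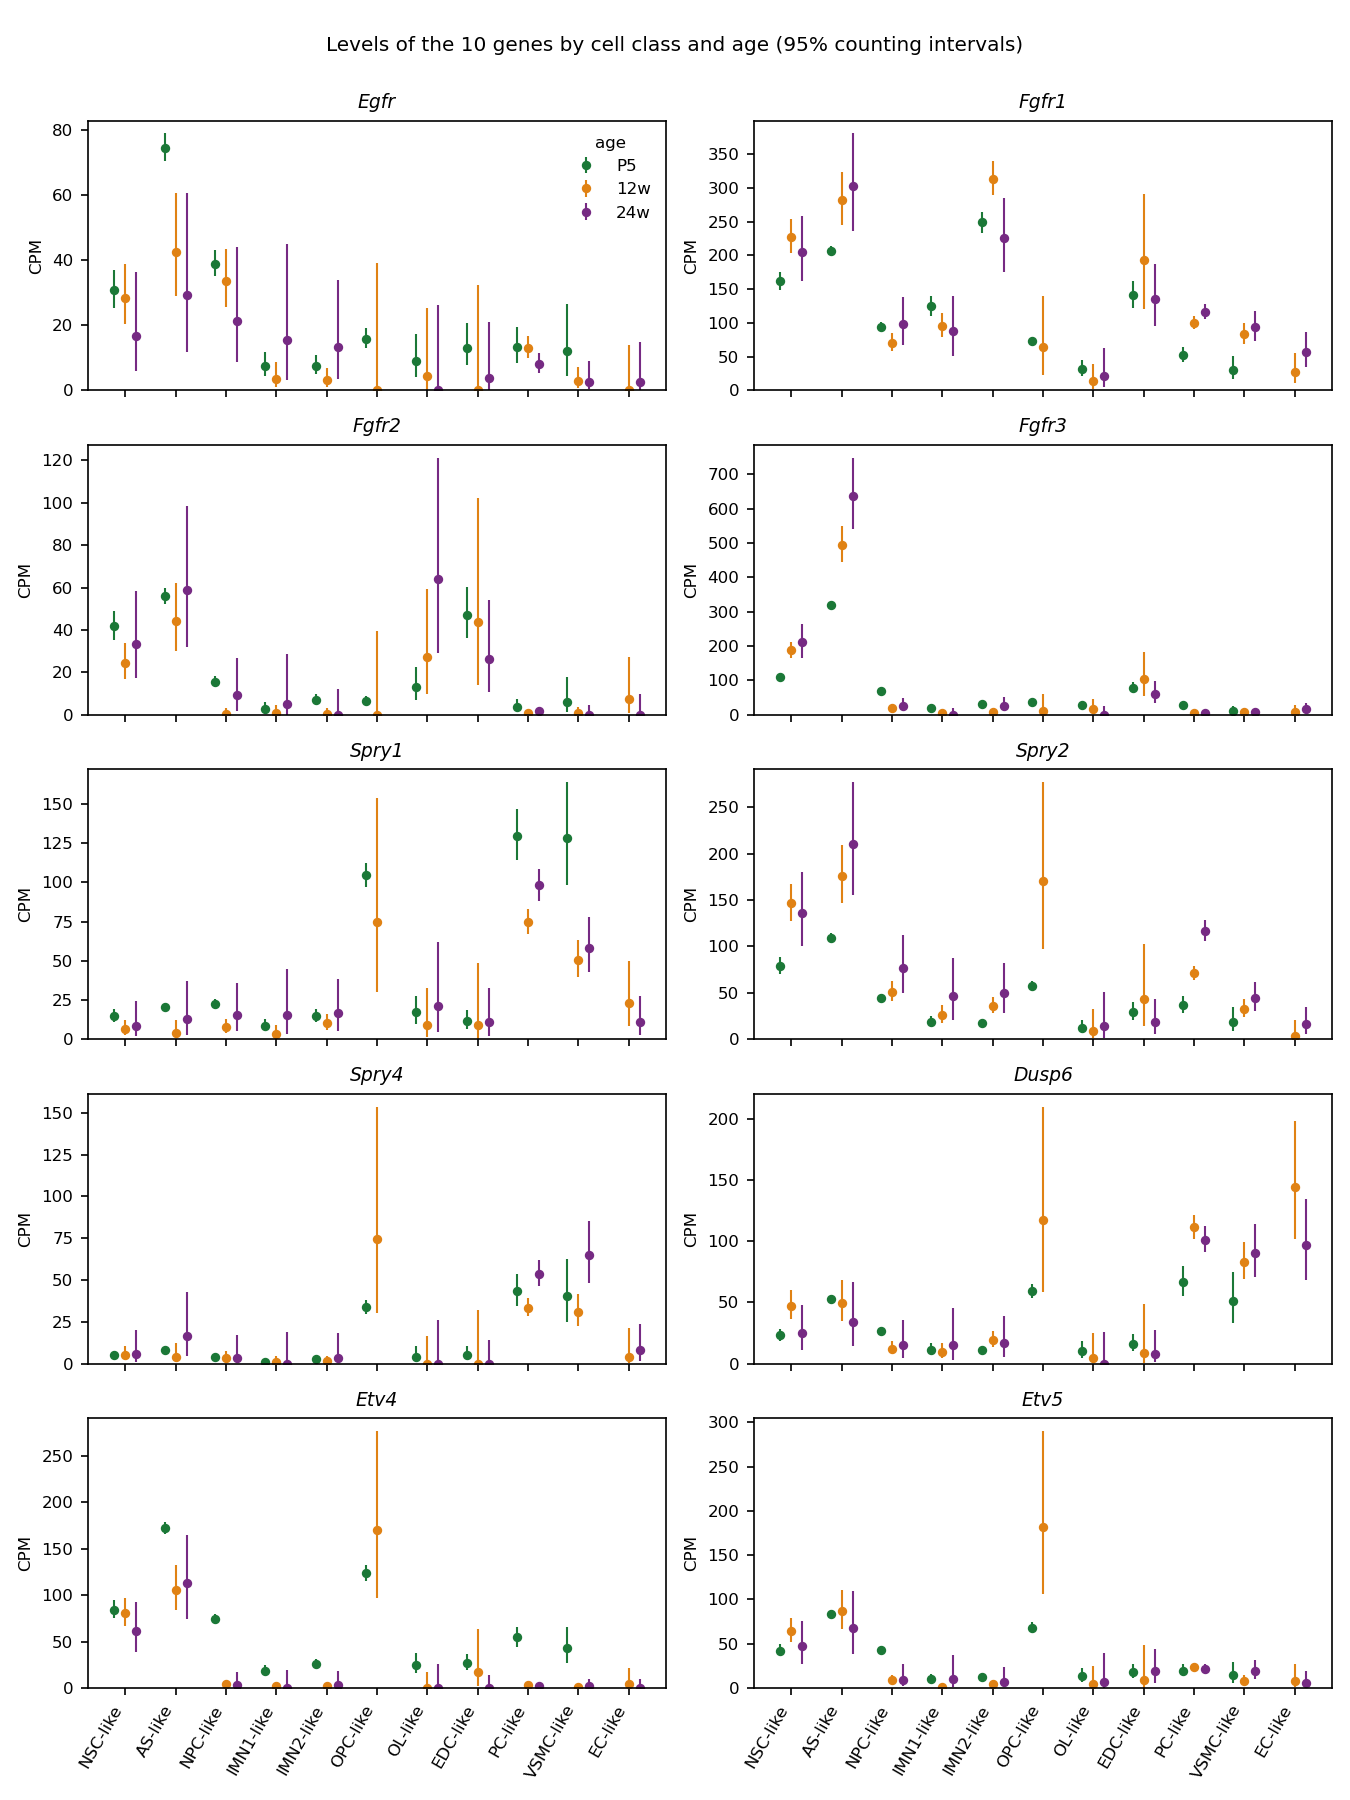
Each panel plots the pooled level (CPM, linear axis) of 1 of the 10 genes in the named cell classes, with 1 point for each age and bars for the exact 95% counting interval. At P5 Fgfr3 and Etv4 stand highest in AS-like cells and Fgfr1 in IMN2-like cells, and the points of OPC-like cells at 12w rest on 34 cells.

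Over the 33 groups of class and age with at least 20000 UMIs, likeness of pattern was measured as Pearson's r of log2(CPM + 1) against 12224 genes. These groups share libraries, depth and free RNA, so r is a description. Among the receptors, the genes most like Fgfr3 were Mlc1 (0.92), Gabrb1 (0.89), Slc25a18 (0.89), those most like Egfr were Kcne1l (0.80), Mras (0.78), Gk (0.78), those most like Fgfr1 Adrbk2 (0.78), Tom1l1 (0.77), Mapk4 (0.76) and the gene most like Fgfr2 was Scd2 (0.83). Mlc1 is an astrocyte membrane protein gene. Among the inhibitors, Spry1 was most like Cspg4 (0.90), Pid1 (0.86), Phlda1 (0.81), Spry2 most like Ndrg2 (0.81), Alkbh7 (0.79), Wsb1 (0.79), Spry4 most like Tnfrsf1a (0.83), Pid1 (0.83), Nrarp (0.82) and Dusp6 most like Tnfrsf1a (0.80), Trib2 (0.79), Rit1 (0.79). Cspg4 encodes the proteoglycan NG2 of OPCs and pericytes. For the factors, the nearest genes were Cspg5 (0.92), Hes5 (0.91), Fzd9 (0.88) for Etv4 and Tlcd1 (0.82), Rhcg (0.82), Cspg5 (0.81) for Etv5. Within the 10 genes, the highest values were 0.77 between Spry1 and Spry4, 0.77 between Spry4 and Dusp6, and 0.76 between Etv4 and Etv5, and the lowest was -0.38 between Fgfr2 and Dusp6.

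In NSC-like cells no gene of the 10 was higher or lower than at P5 by 2-fold or more at both 12w and 24w, the rule of size that stood in for a test. It asked for at least 20 UMIs where the gene was higher, and 9 of the 10 genes could be compared, Spry4 having too few UMIs. Over all 10201 genes compared, the rule marked 7.19% as higher and 5.83% as lower. A count of 0 of 9 genes does not stand apart from these shares.

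Below this rule the members differed in direction. Fgfr3 was at 110.0 CPM (99.6 to 121) at P5, against 188 CPM (166 to 212) at 12w and, at 24w, 211 CPM (166 to 264). Spry2 was at 78.6 CPM (69.8 to 88.2) at P5, against 146 CPM (127 to 168) at 12w and, at 24w, 136 CPM (101 to 180.0). Both were higher at each adult age, and the intervals at P5 did not overlap those at 12w or 24w. Markers of other classes also differed with age in NSC-like cells: the 8 astrocyte markers summed to 1686, 2598 and 3398 CPM in order of age, the 7 pericyte markers to 332, 1234 and 2289.7 CPM and the 6 OPC markers to 538, 57.8 and 91.7 CPM, with none of the OPC markers at 0 at P5 or 12w and 3 of them at 0 at 24w. Their part in these levels was not tested. Fgfr1 had 161, 228 and 206 CPM at the 3 ages, with ratios to P5 of 1.41 (1.23 to 1.62) at 12w and, at 24w, 1.27 (0.986 to 1.62). Its adult levels were both above that at P5, by less than for Fgfr3.

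Egfr had 114, 40 and 6 UMIs in NSC-like cells at P5, 12w and 24w, which gave 30.9 CPM (25.5 to 37.1) at P5, against 28.5 CPM (20.4 to 38.9) at 12w and, at 24w, 16.7 CPM (6.12 to 36.3). The intervals of the 3 ages overlapped. The ratio that did not stay within its interval was that of Egfr: against P5 cells of like sex, its log2 value at 12w was 0.69 in place of -0.10. Fgfr2 was at 41.7, 24.3 and 33.3 CPM, with ratios of 0.581 (0.389 to 0.847) at 12w and, at 24w, 0.799 (0.404 to 1.44), so that only the first interval lay below 1.

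Spry1 was at 14.9 CPM (11.2 to 19.4) at P5, against 6.42 CPM (2.94 to 12.2) at 12w and, at 24w, 8.34 CPM (1.72 to 24.4). The ratios to P5 were 0.431 (0.187 to 0.879) at 12w and, at 24w, 0.559 (0.112 to 1.72), so that the interval at 12w lay below 1 and that at 24w held 1. The profile of empty droplets, scaled by the share of free RNA in NSC-like cells (8.51% of UMIs at 12w and 10.6% at 24w), predicted 59.4% and 88.6% of the Spry1 level there, against 3.27% and 3.57% for Fgfr3. With this prediction subtracted at 12w and 24w, Spry1 met the rule of size as lower. No subtraction was made at P5, so for a gene with this much predicted free RNA the step could only lower the ratios. At P5 the free RNA could not be measured, because the lowest barcode listed in that library has 1495 UMIs.

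Dusp6 was at 23.0 CPM (18.4 to 28.5) at P5, against 47.1 CPM (36.4 to 59.9) at 12w and, at 24w, 25.0 CPM (11.4 to 47.5), a ratio of 2.04 (1.46 to 2.85) at 12w and, at 24w, 1.09 (0.480 to 2.16). It was higher at 12w alone. Etv5 was at 42, 64.2 and 47.2 CPM with ratios of 1.53 (1.17 to 2.00) at 12w and, at 24w, 1.12 (0.639 to 1.86), and Etv4 at 84.5, 80.6 and 61.1 CPM with ratios of 0.954 (0.762 to 1.19) at 12w and, at 24w, 0.723 (0.447 to 1.11). The intervals of Etv4 held 1 at both ages, and that of Etv5 lay above 1 at 12w only.

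**Figure D2:**
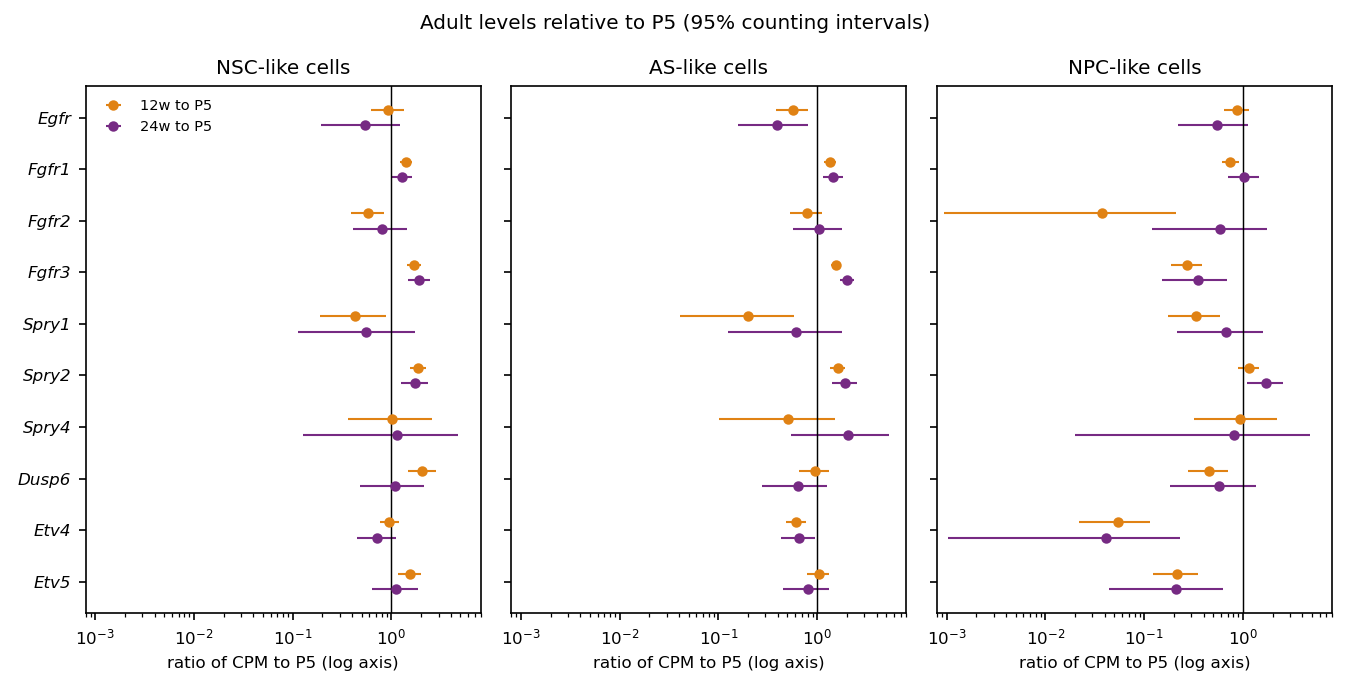
Each panel is a cell class, with the ratio of the pooled level at 12w and at 24w to that at P5 on a log axis, 1 row for each of the 10 genes and bars for exact 95% counting intervals. In NSC-like cells Fgfr3 and Spry2 lie above 1 at both ages, while in NPC-like cells Fgfr3, Etv4 and Etv5 lie below 1 at both.

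The NSC-like class was made of 3 clusters, and their mix differed with age. The cluster led by Ass1, Itih3 and Neat1 held 261, 301 and 77 of these cells in order of age, and the cluster led by Gdf10, Frzb and Pdlim3 held 468, 96 and 21. Naming scored each cluster by the mean log2 ratio of a class's markers to their mean over clusters, with a minimum of 0.5. The first scored 0.60 for NSC, with 6 of 9 markers raised, and 0.37 for AS, the next class. For NSC the second scored 1.28, with 9 of 9 raised. Within the first, Egfr was lower than at P5, with ratios of 0.444 (0.283 to 0.679) at 12w and, at 24w, 0.216 (0.0575 to 0.573). Within the second, it was higher at 12w, at 2.39 (1.01 to 5.22), and at 24w 2 UMIs gave 2.16 (0.247 to 8.76). The level of Egfr over the whole class thus combined clusters in which it differed in opposite directions, and the difference between the clusters was not tested.

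Fgfr3 in the first cluster was near its P5 level, with ratios of 1.12 (0.925 to 1.34) at 12w and, at 24w, 1.19 (0.889 to 1.58), and in the second it was higher, at 1.74 (1.21 to 2.46) at 12w and, at 24w, 2.33 (1.21 to 4.11). For Spry2 the ratios were 1.41 (1.11 to 1.78) at 12w and, at 24w, 1.17 (0.786 to 1.71) in the first and 1.90 (1.34 to 2.65) at 12w and, at 24w, 2.51 (1.34 to 4.35) in the second. Spry2 was above P5 in all 4 of these comparisons, though the interval at 24w in the first cluster held 1. Spry1 had 27 UMIs in the second cluster at P5 and none at 12w or 24w, where 3 UMIs would give ratios of 0.610 and 2.77, so a 2-fold lower level was not resolved.

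Of the 86 other genes of the pathway, 50 could be compared in NSC-like cells, of which 2 were higher and 7 lower at both ages by the rule of size, against 7.19% and 5.83% of all genes. The higher genes were the heparan sulphate coreceptors Sdc2 (77.8, 158 and 169.5 CPM at P5, 12w and 24w) and Sdc4 (74.2, 250.4 and 286 CPM). Syndecans present FGF ligands to their receptors. The lower genes included the EGF receptor ligand Hbegf (35.2, 12.8 and 16.7 CPM), the ERBB ligand Nrg1 (23 UMIs at P5 and none at 12w or 24w, which at 24w leaves a ratio of up to 1.78), the adaptor Shc3 (24, 4 and 1 UMIs, with ratio intervals that held 1 at both ages) and the ubiquitin ligase Cbl (31.4, 12.1 and 11.1 CPM), which removes activated receptors. Also lower were Socs2 (139.8, 43.5 and 30.6 CPM), the cyclin gene Ccnd1 (102, 22.8 and 16.7 CPM) and Id1 (386, 87.8 and 91.7 CPM), a target shared with BMP signalling. None of the 12 compared genes of the Ras to ERK cascade met the rule. The median log2 ratio of the 9 compared members was 0.50 at 12w and 0.19 at 24w, that of the 50 pathway genes was -0.09 and 0.05, and that of all genes compared was 0.05 and 0.10.

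Immediate early and dissociation genes, some of which also respond to ERK, differed with age in the same cells. Of 10 immediate early and stress genes compared, 6 were lower at both ages, among them Fos (405, 90.6 and 33.3 CPM), Egr1 (51.2, 9.28 and 16.7 CPM) and Junb (63.7, 22.1 and 13.9 CPM), and Hspa1a was higher (3.79, 38.5 and 66.7 CPM), with the same backgrounds. In IMN2-like cells, 6 of 9 compared genes of this list were higher and none lower, against 4.87% and 3.98% of all genes. Their part in the levels of the feedback genes was not tested.

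In AS-like cells, of which there were 2952, 206 and 83 in order of age, all 10 genes could be compared and none met the rule, with backgrounds of 5.76% higher and 11.3% lower. Fgfr3 was at 319.7 CPM (311 to 329) at P5, against 496 CPM (446 to 549.6) at 12w and, at 24w, 638 CPM (541 to 748), and Spry2 at 109, 176 and 210.0 CPM. Both were higher at each adult age. The make-up of this class differed with age too: the 9 NSC markers summed to 558, 2809 and 2423 CPM, the 6 OPC markers to 1005, 523 and 265 CPM and the 7 pericyte markers to 148, 1202 and 2490.4 CPM in order of age. The cluster led by Serpinf1 and Pla2g3 held 830, 10 and 4 of these cells. The part of either in these levels was not tested. Egfr was lower, at 74.7 CPM (70.4 to 79.1) at P5, against 42.7 CPM (29.0 to 60.6) at 12w and, at 24w, 29.4 CPM (11.8 to 60.6), and Etv4 was at 173, 106 and 113 CPM. Etv5 was at 83.9, 86.7 and 67.2 CPM, with intervals that overlapped.

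Since shares of cells depend on depth, each cell was thinned to 1000 UMIs before cells with a Fgfr3 UMI were counted. In AS-like cells the share was 27.9% (26.3 to 29.6) at P5, against 35.0% (28.5 to 41.9) at 12w and, at 24w, 43.4% (32.5 to 54.7), and in NSC-like cells 9.65% (7.75 to 11.8), 20.9% (17.1 to 25.2) and 16.2% (9.53 to 24.9). In IMN1-like cells it was 1.40% (0.515 to 3.02) at P5, an age at which free RNA could not be measured. Without thinning the shares at P5 were 76.4% of AS-like, 33.5% of NSC-like and 9.79% of IMN1-like cells, at median depths of 4994.5, 4234 and 5605 UMIs. At 12w and 24w they were 73.8% and 78.3% of AS-like cells, at 3209.5 and 2710 UMIs, and 44.8% and 52.5% of NSC-like cells, at 3240.5 and 3455 UMIs.

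NPC-like cells are the dividing progenitors. In them Fgfr3, Etv4 and Etv5, 3 of the 10 genes compared, were lower than at P5 by 2-fold or more at both ages and none was higher, where the rule marked 6.12% of 11641 genes as lower and 4.32% as higher. The 728, 7 and 1 UMIs of Etv4 in order of age gave 74.0 CPM (68.7 to 79.6) at P5, against 4.06 CPM (1.63 to 8.37) at 12w and, at 24w, 3.05 CPM (0.0772 to 17.0). Relative to P5, the ratios were 0.0549 (0.0220 to 0.114) at 12w and, at 24w, 0.0412 (0.00104 to 0.230). Etv5 was at 43.0 CPM (39.0 to 47.3) at P5, against 9.28 CPM (5.30 to 15.1) at 12w and, at 24w, 9.15 CPM (1.89 to 26.7), and Fgfr3 at 69.9 CPM (64.8 to 75.4) at P5, against 19.1 CPM (13.2 to 26.9) at 12w and, at 24w, 24.4 CPM (10.5 to 48.1). All of the adult intervals of these 3 genes lay below those at P5. Fgfr2 had 153, 1 and 3 UMIs, with ratios of 0.0373 (0.000938 to 0.211) at 12w and, at 24w, 0.588 (0.120 to 1.75), so that the 24w count did not resolve a difference. Egfr was at 38.9, 33.6 and 21.3 CPM, and Fgfr1 at 94.4, 70.8 and 97.6 CPM. Spry2 was at 44.4, 51.0 and 76.2 CPM, with ratios of 1.15 (0.903 to 1.45) at 12w and, at 24w, 1.72 (1.10 to 2.57). Spry1 had ratios of 0.333 (0.174 to 0.581) at 12w and, at 24w, 0.673 (0.216 to 1.59), and Dusp6 of 0.456 (0.277 to 0.711) at 12w and, at 24w, 0.570 (0.184 to 1.35). Of these 3 inhibitors Spry2 was thus not lower at either adult age, while Spry1 and Dusp6 had 12w intervals below 1 and 24w intervals that held 1.

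The make-up of the NPC-like class also differed with age. The 6 OPC markers summed to 801, 37.1 and 42.7 CPM in order of age, with 0, 1 and 1 of them at 0. Olig2 stood at 201, 5.22 and 6.10 CPM, and Eomes, which marks neuronal intermediate progenitors, at 134, 318 and 296 CPM. The 8 astrocyte markers summed to 737, 232 and 210.4 CPM, and the 7 pericyte markers to 117, 1222 and 2477 CPM, none of either list at 0. Free RNA predicted 61.9% and 65.1% of the Etv4 level in NPC-like cells at 12w and 24w. At P5, 82.0% of NPC-like cells had a UMI of Olig1 or Olig2 (36.9% after thinning), against 6.15% at 12w and 6.82% at 24w. Such UMIs were also found at P5 in 68.3% of PC-like, 68.6% of VSMC-like and 69.2% of IMN1-like cells (26.2%, 18.6% and 19.3% after thinning), classes that should lack them, so at this age a UMI of Olig1 or Olig2 does not mark an oligodendrocyte progenitor on its own.

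Splits of the class were added after seeing the data. Among NPC-like cells with no UMI of Olig1 or Olig2, which numbered 233, 229 and 41 in order of age, Etv4 was at 33.7 CPM (25.3 to 44.1), 1.87 CPM (0.385 to 5.46) and 3.36 CPM (0.0852 to 18.7). Among those with a UMI of Eomes, 503, 158 and 29 cells, it was at 29.2 CPM (24.3 to 34.8) at P5, and no UMI was counted at 12w or 24w, where 3 UMIs over the group would correspond to 2.54 and 13 CPM. The lower adult level of Etv4 was thus present in both of these splits at 12w. With a UMI of Olig1 or Olig2, 4 UMIs of Etv4 in 15 cells at 12w gave a ratio to P5 of 0.418 (0.114 to 1.08), which did not resolve a difference. For Fgfr3 in cells without Olig UMIs the ratios were nearer to 1, at 0.609 (0.382 to 0.958) at 12w and, at 24w, 0.798 (0.328 to 1.69). With a UMI of Eomes the Fgfr3 ratios were 0.278 (0.136 to 0.513) at 12w and, at 24w, 0.260 (0.0312 to 0.956). For Etv5 in cells without Olig UMIs the ratios were 0.403 (0.200 to 0.770) at 12w and, at 24w, 0.466 (0.0916 to 1.48). With a UMI of Eomes the Etv5 ratio was 0.584 (0.267 to 1.15) at 12w. No Etv5 UMI was counted there at 24w, where 3 UMIs would give 0.899, so a lower level of Etv5 was not resolved in that split. Egfr in cells without Olig UMIs was at 16.5 CPM (10.8 to 24.2) at P5 and 32.4 CPM (24.2 to 42.4) at 12w. That was a ratio of 1.96 (1.2 to 3.26), whereas over the whole class it was 0.864 (0.644 to 1.14). Spry2 in cells without Olig UMIs was higher, with ratios of 2.43 (1.58 to 3.81) at 12w and, at 24w, 4.09 (2.30 to 7.20). With a UMI of Eomes the Spry2 ratios were 1.81 (1.24 to 2.62) at 12w and, at 24w, 2.89 (1.52 to 5.10). In cells with an Olig UMI, and in those with no UMI of Eomes, the Spry2 intervals held 1 at both ages.

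Since free RNA could not be measured at P5, Etv4 UMIs were set beside Olig UMIs in each class. For each 100 UMIs of Olig1 and Olig2, 2.89 UMIs of Etv4 were counted in OPC-like cells, 7.89 in IMN1-like, 7.87 in IMN2-like, 11.5 in VSMC-like and 16.5 in PC-like cells. NPC-like cells had 10.7, those with a UMI of Eomes 10.3, NSC-like cells 20.6 and AS-like cells 18.9. At P5 Etv4 was at 74.0 CPM in NPC-like, 54.5 in PC-like, 42.7 in VSMC-like, 25.8 in IMN2-like and 18.0 CPM in IMN1-like cells. The part of free RNA in the P5 level of Etv4 was not tested.

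**Figure D3:**
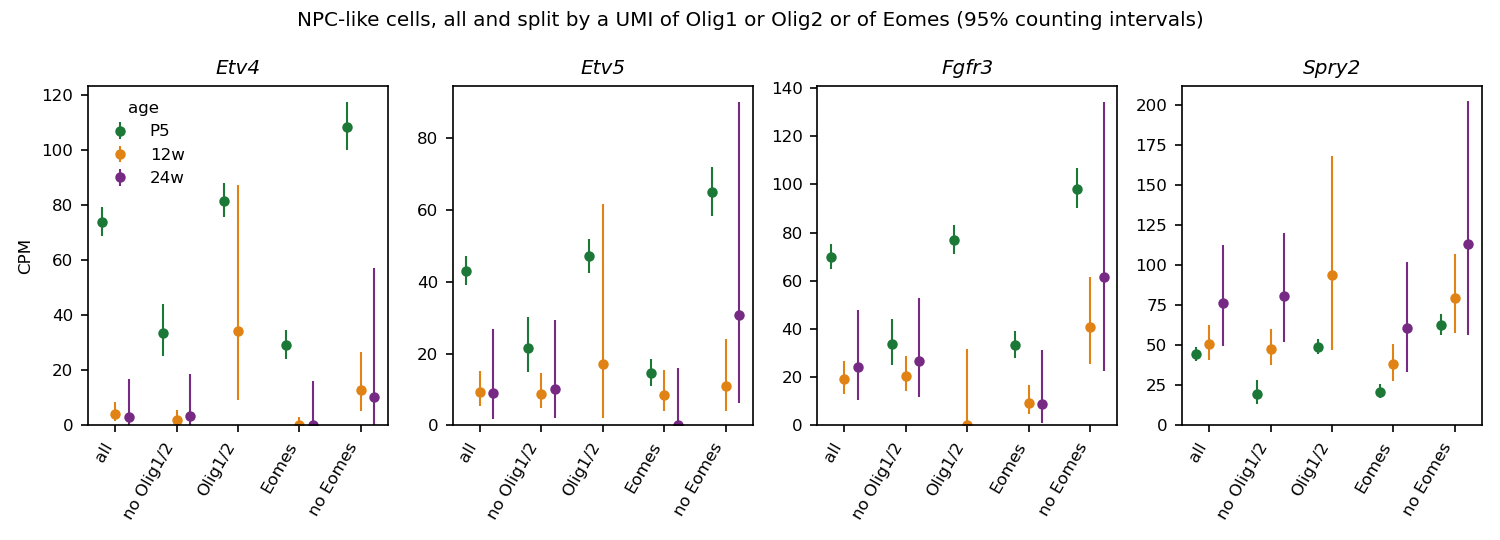
Levels (CPM) of Etv4, Etv5, Fgfr3 and Spry2 in all NPC-like cells and in NPC-like cells split by a UMI of Olig1 or Olig2 or of Eomes are plotted for each age, with exact 95% counting intervals as bars. Etv4 is at 74.0 CPM at P5 and 4.06 CPM at 12w over the whole class, and lower at 12w than at P5 in each split. In cells with a UMI of Olig1 or Olig2 the 12w value rests on 4 UMIs in 15 cells, and its ratio to P5 of 0.418 (0.114 to 1.08) has an interval that holds 1.

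In other classes the adult counts were low. In IMN1-like cells Fgfr3 and Etv4 were lower by the rule of size and none was higher (2 and 0 of 7 genes compared, backgrounds 2.74% and 4.67%), with Etv4 at 18.0, 1.70 and 0 CPM at P5, 12w and 24w, where 3 UMIs over the 24w group would be 15.4 CPM. Neither gene had a UMI in the 34 cells of 24w, and at 3 UMIs the ratio to P5 would be 0.782 for Fgfr3 and 0.855 for Etv4, so a 2-fold lower level at 24w was not resolved for either. At 12w their ratios were 0.216 (0.0671 to 0.541) and 0.0946 (0.0111 to 0.363). In IMN2-like cells Fgfr2 and Etv4 were lower and Spry2 was higher, of 9 compared (backgrounds 3.98% and 4.87%). Fgfr2 had no UMI there at 24w, and 3 UMIs would give a ratio of 1.44, so its call at 24w was not resolved either, while Etv4 had ratios of 0.0831 (0.0222 to 0.219) at 12w and, at 24w, 0.128 (0.00322 to 0.731). Spry2 there was at 17.4 CPM (13.6 to 22) at P5, against 35.9 CPM (27.8 to 45.6) at 12w and, at 24w, 49.7 CPM (27.8 to 82.0). Free RNA predicted 121% and 125% of the 12w levels of Fgfr3 and Etv4 in IMN1-like cells and, in IMN2-like cells, 185% and 114% of those of Fgfr2 and Etv4, against 13.9% for Spry2. The OPC markers summed to 319.8, 22.2 and 20.6 CPM in IMN1-like and 441, 26.3 and 49.7 CPM in IMN2-like cells in order of age. For the astrocyte markers the sums were 274, 93.7 and 92.5 CPM and 446, 112 and 172 CPM, and for the pericyte markers 105, 1027 and 2944 CPM and 105, 1166 and 2313 CPM. Their part in these levels was not tested. In PC-like cells, which should express little of either gene, Fgfr3 and Etv4 were lower as well (2 and 0 of 9 compared, backgrounds 7.79% lower and 15.6% higher), with Etv4 at 54.5, 3.00 and 2.2 CPM. The share of PC-like cells with a UMI of Olig1 or Olig2, given above for P5, was 3.08% at 12w and 1.21% at 24w. As free RNA could not be measured at P5, its part in the Fgfr3 and Etv4 levels of PC-like cells was not tested.

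In PC-like cells the Sprouty genes differed with age in opposite directions. Spry1 was at 129.7 CPM (114 to 147) at P5, against 74.9 CPM (67.2 to 83.1) at 12w and, at 24w, 98 CPM (88.1 to 109), and Spry2 at 36.5 CPM (28.4 to 46.2) at P5, against 70.8 CPM (63.4 to 78.9) at 12w and, at 24w, 116 CPM (106 to 128). Spry1 was thus lower and Spry2 higher at both adult ages. Different clusters held most of the class: the one led by Lurap1l had 298 of the 382 PC-like cells at P5, 368 of 2433 at 12w and 204 of 1739 at 24w, and values within it were not compared. Fgfr1 was at 52.4, 100.3 and 117 CPM, Dusp6 at 66.7, 111 and 101 CPM and Spry4 at 43.4, 33.4 and 53.7 CPM. OPC-like cells were too few in the adult libraries for most genes, 34 at 12w against 2154 at P5, but Etv5 had 181 CPM (106 to 290.2) there at 12w against 67.7 CPM (61.7 to 74.1) at P5. Spry2 likewise had 171 CPM (97.5 to 277) against 57.0 CPM (51.5 to 63.0), and Spry4 had 74.6 CPM (30.0 to 154) against 33.6 CPM (29.4 to 38.3), where the intervals overlapped. Of the genes lower in these cells at 12w, Fgfr3 had 10.7 against 36.1 CPM, Spry1 74.6 against 104 CPM and Egfr 0 against 15.8 CPM. Their intervals overlapped too.

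Open chromatin at the promoters was measured in the 3 scATAC-seq libraries, with cell classes transferred from the scRNA-seq libraries. Of 8788, 12638 and 6041 cells at P5, 12w and 24w, 6269, 11779 and 5865 had a transfer score of at least 0.5, among them 274, 530 and 191 NSC-like cells. Some classes were small at 24w, with 33 IMN1-like, 61 NPC-like and 20 AS-like cells kept, against 597, 252 and 178 at 12w. Before this filter the median score of IMN1-like cells at 24w was 0.50. The authors called peaks in each library on its own, so a promoter's peak can differ in width between ages. Counts in peaks that touch the window of 1000 bases on either side of a start were pooled and expressed as CPM of all counts in peaks, and since most counts come in pairs from both ends of a fragment, intervals were taken on the number of fragments.

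In NSC-like cells 1 of the 10 promoters, that of Egfr, was higher than at P5 by 1.5-fold or more at both ages and none was lower. The same rule marked 4.99% of 14419 promoters as higher and 9.28% as lower. The Egfr promoter, whose sequence is printed above, had 11.7 (8.89 to 15.2) CPM at P5, against 35.7 (31.6 to 40.3) at 12w and, at 24w, 40.5 (34.6 to 47.0), ratios of 3.05 (2.28 to 4.13) at 12w and, at 24w, 3.46 (2.55 to 4.76). Its peak ran over chr11:16751525-16754510 at P5, chr11:16751083-16754938 at 12w and chr11:16750981-16754536 at 24w (mm10). Divided by the length of the peak, the ratios were 2.36 and 2.90. On that scale, for which no background over all promoters was computed, Fgfr3 (1.69 and 2.00) and Etv4 (1.84 and 2.35) were also higher by 1.5-fold or more, and Spry1 (0.521 and 0.439) and Spry4 (0.414 and 0.457) lower, so the count of promoters depends on how peak width is treated. For a gene at a given age, the factor for length is the same in every class. The Egfr transcript in NSC-like cells had ratios of 0.924 (0.628 to 1.34) at 12w and, at 24w, 0.540 (0.194 to 1.21), with intervals that held 1, and a log2 ratio of 0.69 at 12w against P5 cells of like sex.

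The Egfr promoter was the 1 of 10 that met the rule in IMN1-like cells (backgrounds 6.80% higher and 5.14% lower), with ratios of 3.08 (2.40 to 4.01) at 12w and, at 24w, 3.68 (2.52 to 5.33), and in IMN2-like cells (backgrounds 7.97% and 3.96%), with 1.82 (1.59 to 2.10) at 12w and, at 24w, 2.09 (1.75 to 2.51). For each kb of peak the Egfr ratios were 2.39 and 3.09 in IMN1-like and 1.41 and 1.76 in IMN2-like cells, so in the latter Egfr no longer met the rule. In both classes Fgfr3 was then higher and Spry1 and Spry4 lower by 1.5-fold or more. The length factors are the same as in NSC-like cells, so these differences are not separate results of each class. Without that division, the Egfr promoter did not meet the rule in NPC-like cells (backgrounds 4.95% and 2.51%), with 1.34 (1.10 to 1.61) at 12w and, at 24w, 1.49 (1.13 to 1.93), or in AS-like cells (backgrounds 5.00% and 11.2%), with 1.33 (1.08 to 1.62) at 12w and, at 24w, 0.913 (0.539 to 1.45). For each kb of peak, with those same length factors, Etv4 (1.62 and 1.80) was higher in AS-like cells by 1.5-fold or more, and Spry1 (0.354 and 0.517) and Spry4 (0.383 and 0.381) were lower. At P5 the Egfr promoter was at 41.6 (38.8 to 44.5) CPM in AS-like and 30.5 (26.8 to 34.5) in NPC-like cells, the classes with the most Egfr transcript, against 11.7 (8.89 to 15.2) in NSC-like cells. PC-like cells, whose Egfr transcript was at 13.2 CPM, had 37.4 (31.0 to 44.9) CPM at the promoter. Among the 5 neural classes at 12w the spread was narrower, from 30.5 (28.6 to 32.6) in IMN2-like to 55.0 (45.2 to 66.3) in AS-like cells.

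As counts in peaks, no promoter of the 10 met the rule in NPC-like cells. In NPC-like cells the Fgfr3 promoter had ratios of 0.969 (0.844 to 1.11) at 12w and, at 24w, 0.822 (0.656 to 1.02) and the Etv4 promoter 0.756 (0.651 to 0.876) at 12w and, at 24w, 1.05 (0.857 to 1.28). The peaks of both were wider at P5, 7138 and 6017 bases against 4160 and 3369 at 12w and 3904 and 3471 at 24w, which adds counts at P5. Divided by peak length, with the same factors as in every class, the ratios were 1.66 and 1.5 for Fgfr3 and 1.35 and 1.82 for Etv4. For Spry4 they were 0.343 and 0.357. On that scale Fgfr3 was thus higher and Spry4 lower by 1.5-fold or more, which is not a result of this class alone. In NSC-like cells the median log2 ratio of the 10 promoters was 0.16 at 12w and 0.39 at 24w, and that of all promoters was -0.15 and -0.09.

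**Figure D4:**
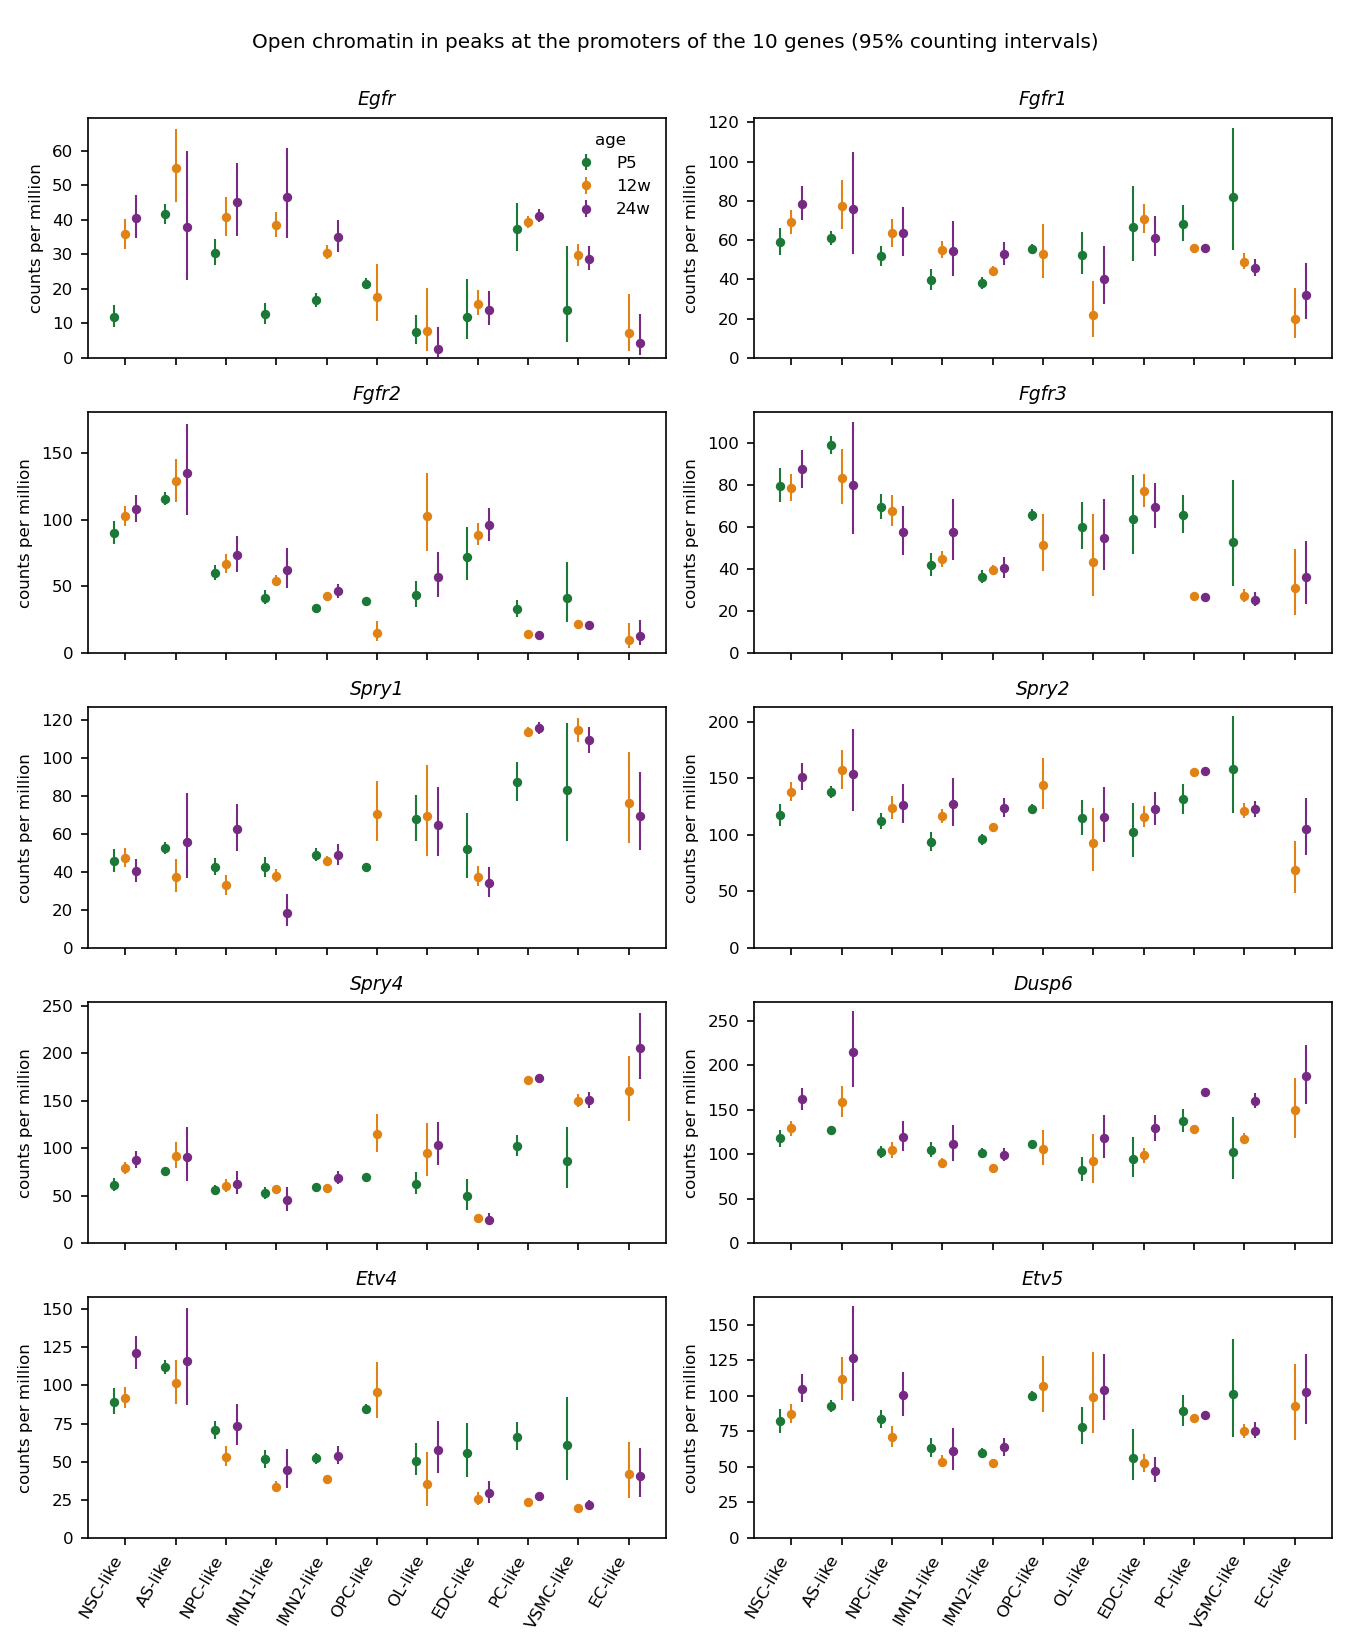
Each panel plots CPM in the peaks at the promoter of 1 of the 10 genes for the named cell classes and 3 ages, with exact 95% intervals on fragments as bars. The Egfr promoter in NSC-like cells lies at 11.7 at P5 and at 35.7 and 40.5 at 12w and 24w.

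In the cultured NSCs, transcripts-per-million values (TPM), which are scaled for gene length, were analysed for 4 of 6 libraries. Setd8 itself was at 154, 143 and 143 TPM in the control libraries and 36.4 TPM in the knockdown library. The libraries labelled Setd8KD_1 and Setd8KD_2 thus held Setd8 at the level of the library labelled Ctrl_3, and their values equal control columns of the study's own table of chromatin genes at 168 of 168 genes. Only the library labelled Setd8KD_3 equals a knockdown column. The libraries were therefore grouped by that table, as 3 controls and 1 knockdown. The labels do not say that the libraries are separate cultures, so the spread between controls may be technical. The single knockdown library was assumed to vary like the controls. In bulk RNA, fewer cells of a kind and less RNA in each cell cannot be told apart.

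Of the 10 genes, 8 were higher in the Setd8 knockdown library at an adjusted p below 0.05 (limma on log2(TPM + 1), Benjamini-Hochberg over 12703 genes), and none was lower. Over all genes tested, 20% were higher and 21.7% lower by this test. With a change of at least 1.5-fold also asked for, 1 gene remained as higher, Fgfr2, and none as lower, against 6.61% and 8.19% of all genes. The median log2 fold change was 0.36 over the 10 genes and 0.00 over all genes tested. In 8 of the 10 the knockdown library lay above all 3 controls, as it did for 41.3% of all genes, and in 1, Egfr, below them, as for 40.8%. With no filter on low values 3 of the 10 passed as higher, Fgfr2, Dusp6 and Etv5, where 4.97% of all genes did and 4.31% passed as lower. With the libraries grouped as their labels name them, limma passed none of the 10 and no gene in all, with 86 genes at an unadjusted p below 0.05.

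The receptors were split. Fgfr2 was at 22.2, 22.2 and 22.8 TPM in the control libraries and 36.1 TPM in the knockdown library. The controls lay within 1 TPM of each other, and the log2 fold change was 0.66 ± 0.08 (SE) with a limma adjusted p of 0.00107. Fgfr1 was at 131, 121 and 124 TPM in the control libraries and 159 TPM in the knockdown library, a log2 fold change of 0.34 ± 0.06 (SE) with a limma adjusted p of 0.00673. Egfr was at 88.9, 96.4 and 100.3 TPM in the control libraries and 84.9 TPM in the knockdown library, below all controls, with a log2 fold change of -0.16 ± 0.08 (SE) that did not pass limma's test (adjusted p 0.148). Fgfr3, at 25.9, 26.9 and 26.0 TPM in the control libraries and 26.1 TPM in the knockdown library, lay within the range of the controls (limma adjusted p 0.939).

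The 4 inhibitors passed limma's test as higher, with the single knockdown library assumed to vary like the controls. Dusp6 was at 396, 394 and 378 TPM in the control libraries and 522 TPM in the knockdown library, and Spry2 at 371, 342 and 327 TPM in the control libraries and 463 TPM in the knockdown library. Spry1 was at 266, 235 and 225 TPM in the control libraries and 319.5 TPM in the knockdown library, and Spry4 at 129.9, 118 and 117 TPM in the control libraries and 152 TPM in the knockdown library. In each case the knockdown library lay above the highest control. The log2 fold changes were 0.42 ± 0.05 (SE) for Dusp6, 0.42 ± 0.07 (SE) for Spry2, 0.40 ± 0.09 (SE) for Spry1 and 0.32 ± 0.07 (SE) for Spry4, with limma adjusted p of 0.00138, 0.00571, 0.0140 and 0.0156. These changes of 1.25 to 1.34-fold in mean TPM were similar in size. With no filter on low values, only Dusp6 of the 4 passed, at a limma adjusted p of 0.0427, against 0.206, 0.131 and 0.164 for Spry1, Spry2 and Spry4. Of 10 immediate early and dissociation genes tested, 5 also passed limma's test as higher and none as lower, 3 of them past 1.5-fold (Egr1, Jund and Fos), with a median log2 fold change of 0.31, and their part was not tested.

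Of the transcription factors, Etv4 was at 109.7, 111 and 101 TPM in the control libraries and 139 TPM in the knockdown library, and Etv5 at 203, 203 and 206 TPM in the control libraries and 227 TPM in the knockdown library. Both lay above all controls. The log2 fold change of Etv4 was 0.37 ± 0.07 (SE) with a limma adjusted p of 0.00772. That of Etv5 was 0.15 ± 0.05 (SE) with a limma adjusted p of 0.0478, which edgeR and DESeq2 on recovered reads put at 0.0590 and 0.0871, and which leaving out any 1 control library raised above 0.05.

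Within a library TPM are per length, so levels of different genes can be compared. In the library labelled Ctrl_3, Dusp6 was highest of the 10 genes, followed by Spry2, Spry1, Etv5, Fgfr1, Spry4, Etv4, Egfr, Fgfr3 and Fgfr2. Fgfr1 was the highest of the 4 receptors in every library, with a control mean of 125 TPM against 26.3 TPM for Fgfr3.

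**Figure D5:**
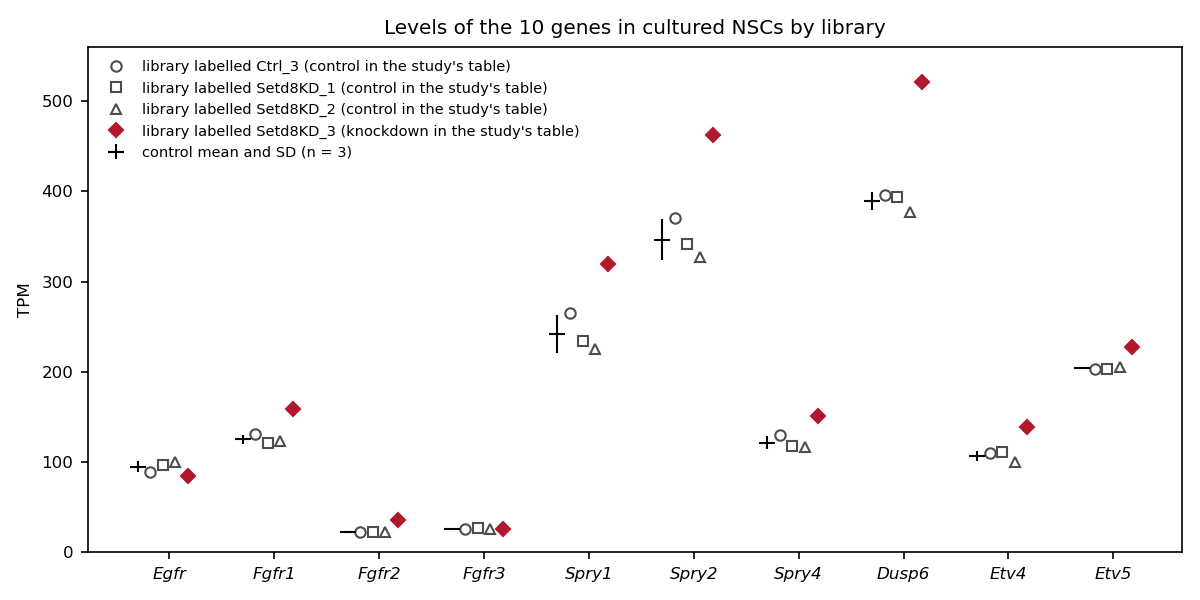
TPM of the 10 genes are plotted for each of the 4 libraries, with open symbols for the 3 control libraries, filled symbols for the knockdown library, and the control mean with its SD (n = 3). The knockdown library lies above all controls for 8 genes, within them for Fgfr3 and below them for Egfr.

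Of the 86 other pathway genes, 64 were tested in the cultured cells, and 19 were higher and 5 lower at a limma adjusted p below 0.05, with 8 and 1 also past 1.5-fold. Over all genes tested these shares were 20% and 21.7%, and 6.61% and 8.19% past 1.5-fold. The median log2 fold change of these 64 genes was 0.13. By role, the ligands had the highest median, 0.62 over 8 tested genes, where 7 of the 8 bind receptors of the EGF receptor family and 4 of these passed as higher at 1.5-fold or more. Fgf1, the only FGF among the 8, passed as lower, at 19.8, 21.1 and 18.3 TPM in the control libraries and 14.6 TPM in the knockdown library, with a log2 fold change of -0.40 and a limma adjusted p of 0.0216. Areg was at 14.7, 13 and 12.0 TPM in the control libraries and 28.9 TPM in the knockdown library, Hbegf at 73.3, 68.7 and 69.0 TPM in the control libraries and 118 TPM in the knockdown library and Tgfa at 4.29, 4.68 and 3.42 TPM in the control libraries and 8.58 TPM in the knockdown library. For Areg, Hbegf and Tgfa the knockdown library lay above all controls. Nrg1 was at 1.29, 1.15 and 0.945 TPM in the control libraries and 4.58 TPM in the knockdown library, a low level of 17 to 85 recovered reads. The glypicans Gpc4 (41.3 TPM as the control mean and 112 TPM in the knockdown library) and Gpc1 (130.0 and 206 TPM), which bind growth factors at the cell surface, passed as higher too, as did the ERK target Ier3 (72.8 and 154 TPM) and the inhibitor Spred3 (18.8 and 29.2 TPM). The FGF receptor adaptor Frs2 was lower, at 25.5, 23.9 and 22.3 TPM in the control libraries and 15.5 TPM in the knockdown library. Of the 12 tested genes of the Ras to ERK cascade, 2 were higher and 3 lower, and none passed 1.5-fold.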

How the data were processed

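Processed files of 3 scRNA-seq, 3 scATAC-seq and 4 of 6 bulk RNA-seq libraries were analysed. The authors aligned scRNA-seq reads to mm10 with Cell Ranger 2.2.0 and deposited UMI counts per gene and barcode. For scATAC-seq they deposited counts per peak and barcode, with peaks called in each library. For bulk RNA-seq the study's methods name Trimmomatic, STAR and DESeq2, and the deposited values used here are TPM, each with a small constant added. Multiplied by the deposited gene lengths they gave whole reads, 20040076 to 21493347 in a library, with 100% of values under 1000 reads whole within 0.05.

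Kept barcodes had 1000 or more UMIs, 500 or more genes and a mitochondrial share of 10% or less, and doublets called by scrublet (scanpy 1.11.5) were removed, 932, 80 and 3 in order of age. The low rate at 24w, 0.107%, leaves doublets there largely uncalled. Cells were integrated and clustered in Seurat 5.3.0 (2000 variable genes, 30 dimensions, resolution 0.8, then a second round on the neural classes) and named from markers. UMIs were pooled by class and age, with exact Poisson intervals for levels and exact conditional binomial intervals for ratios, at 95% confidence. Classes with fewer than 20 cells gave no level. UMIs in barcodes of 10 to 100 UMIs served as the free RNA profile. Classes were transferred to scATAC-seq cells with 3000 to 100000 counts, and promoter starts over 100000 bases from the gene's median start were left out. Bulk values were tested as log2(TPM + 1) in genes with a mean of at least 1 TPM, with limma 3.58.1 in R 4.3.3 and Benjamini-Hochberg adjustment, and edgeR 4.0.16 and DESeq2 1.42.0 on recovered reads were alternatives. The rules and tests across all genes were tested on simulated data.

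Named genes are the 10 members, the 3 genes most like each, and the pathway genes that met the rule of size or passed the test at 1.5-fold, up to 8 in each by size of change. Sdc2, Fgf1 and Frs2 fell outside that number and were named after their values were seen. Some genes and results that these rules would name are not reported here. The members and gene lists were chosen with earlier results of these data known, so their counts are descriptions. Samples were grouped by age from the labels, and the bulk libraries by the study's own table.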

Additional observations from a re-analysis of the deposited data

Results flagged for a closer look

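Fgfr3 was the 1 of the 10 genes whose intervals lay above 1 at both adult ages in some of the 5 neural classes and below 1 at both in another. At 12w alone the same held between NSC-like and NPC-like cells for Fgfr1 (1.41 (1.23 to 1.62) and 0.749 (0.615 to 0.906)), Dusp6 (2.04 (1.46 to 2.85) and 0.456 (0.277 to 0.711)) and Etv5 (1.53 (1.17 to 2.00) and 0.216 (0.122 to 0.355)). The Fgfr3 level in AS-like cells was 1.55 times that at P5 (1.39 to 1.73) at 12w and, at 24w, 2.00 times (1.69 to 2.35). The same ratios in the NSC-like class were 1.71 (1.46 to 2.00) and 1.92 (1.48 to 2.46). For the NPC-like class they were 0.274 (0.187 to 0.388) and 0.349 (0.150 to 0.691). In NPC-like cells with a UMI of Eomes they were 0.278 (0.136 to 0.513) at 12w and, at 24w, 0.260 (0.0312 to 0.956). In NPC-like cells without a UMI of Olig1 or Olig2 they were 0.609 (0.382 to 0.958) at 12w and, at 24w, 0.798 (0.328 to 1.69), and in the NSC-like cluster led by Ass1 1.12 (0.925 to 1.34) at 12w and, at 24w, 1.19 (0.889 to 1.58). PC-like cells, which should express little Fgfr3, had 0.180 (0.108 to 0.294) at 12w and, at 24w, 0.167 (0.0925 to 0.289). With 1 library at each age, the difference between the classes was not tested, and the intervals cover counting error only. The part of free RNA in these ratios was not tested either.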

How the results depend on the processing

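Limits of these data are the single library at each age and assay, the mix of age with sex, few UMIs in the 24w classes, and the single knockdown library. For Egfr, Spry1, Spry4 and Dusp6 in NSC-like cells at 24w, counts of 2 to 9 UMIs leave wide intervals. No paired analysis was possible because only 1 knockdown library was available and ages had 1 library each.

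In NSC-like cells, where 0 members were called, 733 genes were higher and 595 lower. With predicted free RNA subtracted at 12w and 24w but not at P5, 1 member was lower (Spry1), as were 7.45% of all genes. A 1.5-fold rule called 2 members higher (Fgfr3 and Spry2) and 1 lower (Spry1), with 1534 genes higher and 1311 lower in all (15% and 12.9%). Thinning each cell to 1000 UMIs before pooling left 310 genes higher and 243 lower, with fewer UMIs in all. Settings added after seeing the data were the single clusters: the one led by Ass1 had 1 member lower (Egfr), as were 5.69% of all genes, and the one led by Gdf10 had 2 lower (Fgfr2 and Spry1), as were 6.25%, and 348 genes higher. Spry1 had no UMI there at 12w or 24w, so its call was not resolved. With P5 cells of like sex, 19 of 20 log2 ratios stayed within their intervals, and that of Egfr at 12w was 0.69, for which the cause was not tested. The promoter values in NSC-like cells, the class run, moved by less than their intervals in the 3 alternatives run on counts in peaks. Division by peak length, added after seeing the data, moved values further: at 12w in NSC-like cells, Etv4 went from 1.03 (0.910 to 1.16) to 1.84 and Spry4 from 1.30 (1.12 to 1.49) to 0.414, which turned its direction.

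In the bulk libraries 1880 genes were called at 1.5-fold, 840 higher and 1040 lower. With no filter on low values these were 975, 410 and 565, and 3 members passed as higher, with more genes tested. With the libraries grouped as labelled, 0 genes were called, 0 higher and 0 lower, 0 members were called and 0 passed as higher, and log2 fold changes turned sign for Egfr (0.0742), Fgfr3 (0.0262), Spry1 (-0.0502) and Spry4 (-0.0215). Fgfr3 also turned, to 0.0012, with values centred on their median and, to 0.0082, without the library labelled Setd8KD_1, in a range of -0.0192 to 0.0082 over the controls left out. Leaving out each control in turn gave 1865 to 1974 genes called, 830 to 894 higher and 1002 to 1080 lower, with 1 member called and 7 members passing as higher each time, Etv5 being lost in all 3. Between 0 and 1 member passed as lower, the 1 being Egfr without the library labelled Ctrl_3, at -0.21 with a limma adjusted p of 0.0278. In edgeR and DESeq2 on recovered reads the 9 members other than Etv5 kept their direction and side of the threshold.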
